A study of Mus musculus with 18 samples.

Results

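Nontumour liver of mice with a liver-specific knockout of Ftcd (LKO), taken 12 months after diethylnitrosamine (DEN), was compared with untreated LKO liver. The comparison rested on 6 of the 18 libraries of the series, 3 in each group, and genes had to reach 1 TPM (a length-corrected share of transcripts) in 3 or more of these 6 to enter. This rule kept 10865 of the 58126 genes of the table. DEN LKO nontumour liver came from mice injected into the peritoneum with DEN at 20 mg/kg on postnatal day 14. Untreated LKO mice were 12 months old and received no injection, so they were about 14 days younger. All mice were C57BL/6 and ate regular chow, and both groups carried the same knockout. The driver of the deletion is not given in the sources used here. Nontumour tissue was dissected from livers in which visible tumours had been counted, so tumours too small to see are not addressed by the labels. The remaining libraries were DEN LKO tumour (3), DEN wild-type (WT) nontumour (6) and untreated WT (3). Both of these DEN groups had the same dose, day of injection and interval of 12 months, and untreated WT mice were 12 months old. All 18 entered 1 model and gave it its estimate of the spread. The labels do not state whether replicates came from separate animals. The p-values therefore measure spread among these libraries, part of which may be technical.

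DEN is converted in hepatocytes, chiefly by the cytochrome P450 Cyp2e1, to a form that alkylates DNA, and a single dose in infant mice leads to liver tumours many months later. Ftcd, the gene removed in both groups, encodes an enzyme that links histidine catabolism to the folate pool. Adult mouse liver also has a strong sex bias. The pulsed growth hormone secretion of males, read through the transcription factors STAT5 and BCL6, keeps major urinary protein (Mup) genes and several P450 genes high in males. The steadier secretion of females keeps another set of P450, sulfotransferase and flavin monooxygenase genes high. Resident macrophages of the liver, the Kupffer cells, take up debris and make complement C1q.

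The libraries differed in their sex chromosomes. Xist, the RNA of the inactive X chromosome, was at 55.09 TPM in DEN LKO nontumour 1 and at 0.01 TPM or below in the other 5 libraries. Y-linked genes summed to 0.06 TPM in DEN LKO nontumour 1 and to 15.04 to 22.34 TPM in the others. DEN LKO nontumour 1 was therefore XX, and DEN LKO nontumour 2 and 3 and all 3 untreated LKO libraries were XY. All 9 libraries labelled WT were XX. Results are given with DEN LKO nontumour 1 and, where they rest on it, without it. Ftcd was at 0.34, 1.01 and 0.85 TPM in DEN LKO nontumour 1 to 3 and at 3.16, 1.75 and 2.29 TPM in untreated LKO 1 to 3. It was low in all 6, and lower in each DEN library than in any untreated one. The difference was -0.97 on log2(TPM + 1) (2-sided exact permutation p = 0.1, the smallest that 3 against 3 allows). Of the libraries labelled WT, DEN WT nontumour 1 and 2 and untreated WT 3 were as low, at 2.36, 2.50 and 1.77 TPM, and the other 6 were at 61.17 to 106.10 TPM. Values of the WT groups below are those of the libraries so labelled. Mitochondrially encoded genes took 36.16%, 18.70% and 17.58% of TPM in DEN LKO nontumour 1 to 3 and 20.28%, 30.24% and 17.73% in untreated LKO 1 to 3 (difference 1.40 percentage points, exact permutation p = 0.9). Alb, the hepatocyte gene for albumin, was at 14324.09, 32342.68 and 22148.62 TPM after DEN and at 8270.95, 7025.34 and 19138.88 TPM untreated, so the label of liver held in each. TPM values are length-corrected shares that sum to 1000000 per library, so the depth behind a value is unknown.

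Of 10865 genes tested with limma, 10 passed at a Benjamini-Hochberg adjusted p under 0.05, which is 0.092% of the genes. Higher after DEN were 6 (0.0552%) and lower were 4 (0.0368%). Cyp2a4, S1pr3, Cfp, Rad51b, Gm3788 and MSTRG.18284 rose, and Mup-ps5, Mup-ps11, Capn8 and Gm31121 fell. For each of the 10, the ranges of both groups did not overlap, as was so for 8.74% of the tested genes upward and 2.71% downward. At an unadjusted p under 0.05 there were 628 genes (5.78%), 522 higher (4.8%) and 106 lower (0.976%). Over all tested genes the log2 fold change had a median of 0.10. Fold changes are on log2(TPM + 1), which understates those of low genes, and are given with their standard error (SE). Without untreated LKO 2 no gene passed (lowest adjusted p = 0.0691, 577 genes at an unadjusted p under 0.05). Without untreated LKO 1, 4 genes passed, and without untreated LKO 3 or DEN LKO nontumour 3, 6 genes passed in each case. Without DEN LKO nontumour 2, 20 passed, 18 of them lower. With median-ratio scaling 20 passed, of which 45% were higher against 60% here, and with quantile normalization 18, of which 44.4% were higher. With a pseudocount of 0.1, 2 genes passed, Cyp2a4 and Rad51b. With the 6 LKO libraries fitted alone 9 passed, all higher, and only Cyp2a4 and Gm3788 were among the 10. The 2 scalings moved the median of all genes from 0.10 to -0.07 and -0.05.

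**Figure D1:**
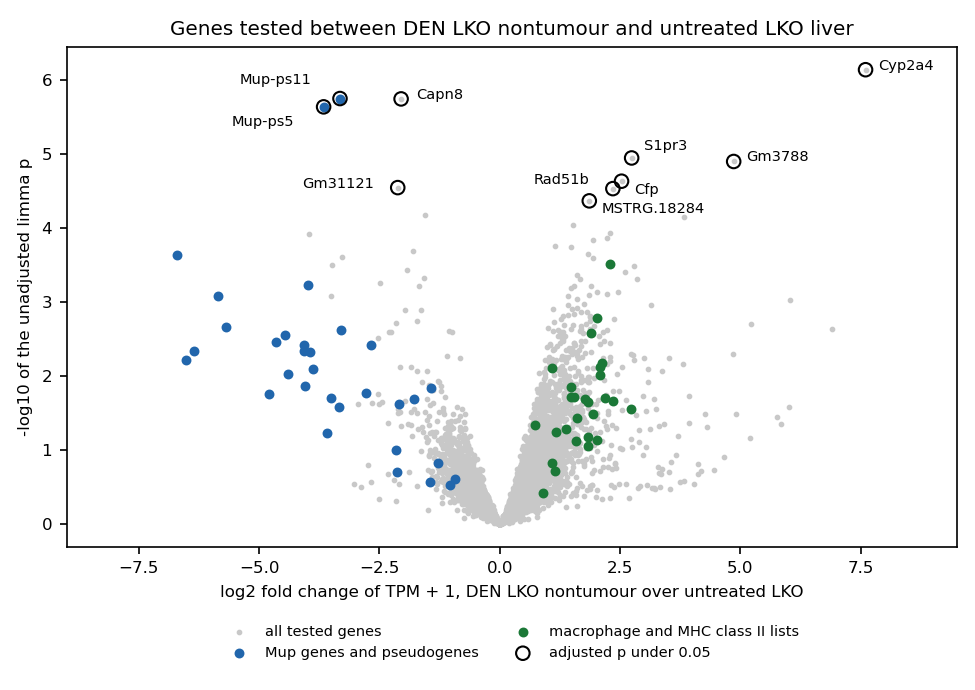
Each point is 1 of the 10865 genes tested, by its log2 fold change of TPM + 1 between DEN LKO nontumour and untreated LKO liver (3 libraries each) and the -log10 of its unadjusted limma p. Rings mark the 10 genes at an adjusted p under 0.05, with Cyp2a4 at 7.60 farthest to the right, and the tested Mup genes and pseudogenes lie to the left of 0 while the tested macrophage and MHC class II genes lie to the right. The positions of Gm3788 and MSTRG.18284, at 0 in untreated LKO, depend on the pseudocount.

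Cyp2a4, a steroid 15-alpha-hydroxylase typical of female mouse liver, had the largest rise of the genes that passed. It was at 167.77, 743.40 and 346.00 TPM in DEN LKO nontumour 1 to 3 and at 0.93, 0.17 and 1.66 TPM in untreated LKO 1 to 3. The lowest DEN library, which was the XX one, lay far above the highest untreated library, and both XY libraries after DEN lay higher still. The log2 fold change was 7.60 ± 1.02 (SE, limma adjusted p = 0.0062) and 8.13 without the XX library (adjusted p = 0.0111). Only the fit without untreated LKO 2, among those run, lost this gene (7.28, adjusted p = 0.0691). In WT liver Cyp2a4 was high in both groups, at 128.48 to 990.10 TPM after DEN (median 636) and at 992.33, 680.82 and 516.53 TPM untreated. Cyp2a4 lies at chromosome 7, 26307169 to 26315088 (mm10, ENSMUSG00000074254).

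Cyp2a4 has a close relative on the same chromosome, Cyp2a5, a coumarin hydroxylase, and reads shared by such genes can be split between them, so the value of either is uncertain. Their promoters, from RefSeq on GRCm38.p6, are shown because the levels of these genes differed so widely in untreated LKO liver. The lines hold 210 bases each, from 250 bases before the transcription start, and capitals mark the bases at which the promoters differ.
Cyp2a4 (chr7:26306942-26307151, plus strand): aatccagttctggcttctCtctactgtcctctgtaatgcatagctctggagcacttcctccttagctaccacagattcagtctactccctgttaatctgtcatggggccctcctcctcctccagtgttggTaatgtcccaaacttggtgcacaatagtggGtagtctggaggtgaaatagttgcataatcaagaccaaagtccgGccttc
Cyp2a5 (chr7:26835089-26835298, plus strand): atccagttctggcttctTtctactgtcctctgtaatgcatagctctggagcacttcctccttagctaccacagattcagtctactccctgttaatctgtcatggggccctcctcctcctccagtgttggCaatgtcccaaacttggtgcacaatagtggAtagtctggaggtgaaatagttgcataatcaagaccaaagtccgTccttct
Over the 249 bases that could be aligned without a gap, 245 were equal (98.4%) and 4 differed. Cyp2a5 was at 616.88, 1101.86 and 1764.97 TPM after DEN and at 666.03, 399.00 and 213.08 TPM untreated, with overlap at DEN LKO nontumour 1 (1.47 ± 0.63, limma adjusted p = 0.75). The sum of both genes was 784.65, 1845.26 and 2110.97 TPM after DEN and 666.96, 399.17 and 214.74 TPM untreated. Cyp2a5 gave nearly all of that sum in each untreated LKO library.

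S1pr3, a receptor for the lipid sphingosine-1-phosphate, was at 4.33, 13.93 and 9.55 TPM after DEN and at 1.31, 0.00 and 0.22 TPM untreated (log2 fold change 2.74 ± 0.46, limma adjusted p = 0.0226). It was low in every untreated library. In WT liver it lay between 0.13 and 2.73 TPM after DEN and between 0.67 and 1.02 untreated. Cfp encodes properdin, which stabilises the C3 convertase of the alternative complement pathway and is made mainly by myeloid cells. Its values were 21.72, 36.67 and 56.47 TPM after DEN and 7.38, 5.57 and 3.59 TPM untreated (2.53 ± 0.45, adjusted p = 0.0352). Rad51b, which acts in homologous recombination, was at 6.04, 9.96 and 14.02 TPM after DEN and at 0.94, 0.86 and 1.42 TPM untreated (2.35 ± 0.42, adjusted p = 0.0352). For S1pr3, Cfp and Rad51b the XX library was the lowest of the 3 after DEN and still above every untreated library. Without it their log2 fold changes were 3.15, 2.88 and 2.64, and all passed. With the 6 LKO libraries fitted alone none of the 3 passed (adjusted p = 0.0689, 0.069 and 0.0689), and with a pseudocount of 0.1 S1pr3 and Cfp did not (0.116 and 0.0528).

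Cfp and Rad51b were present in untreated WT liver at more than the untreated LKO levels. Cfp was at 16.25, 18.04 and 11.47 TPM in untreated WT and at 20.04 to 36.15 TPM in DEN WT nontumour. Rad51b was at 11.87, 7.32 and 6.57 TPM in untreated WT and at 11.62 to 19.08 TPM in DEN WT nontumour. Neither passed between the WT groups (limma adjusted p = 1 for both). Both had a WT fold change of 0.83, the same direction as in LKO (limma unadjusted p = 0.0463 for Cfp and 0.0355 for Rad51b). In WT 0.433% of tested genes were at an unadjusted p under 0.05. The other pair that rose was at 0 in untreated LKO. Gm3788, a predicted gene on chromosome 3, was at 36.44, 13.44 and 43.99 TPM after DEN (adjusted p = 0.0226). It was listed at 0 in the untreated LKO libraries, and among the WT libraries only DEN WT nontumour 2 (16.20 TPM) and untreated WT 1 (1.27 TPM) had it. The assembled transcript MSTRG.18284, which has no annotation, was at 1.87, 6.39 and 1.26 TPM and likewise listed at 0 in untreated LKO (adjusted p = 0.0463). Both lost their call without the XX library (adjusted p = 0.066 and 0.061) and with a pseudocount of 0.1 (0.116 and 0.203), and MSTRG.18284 also with the 6 LKO libraries alone (0.122). S1pr3 lies at chromosome 13, 51408639 to 51422797, Cfp at chromosome X, 20925454 to 20931555, and Rad51b at chromosome 12, 79297282 to 79814690 (mm10).

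The genes that fell included a pair of Mup pseudogenes on chromosome 4. Mup-ps5 was at 0.36, 6.16 and 0.00 TPM after DEN and at 32.52, 34.14 and 15.78 TPM untreated (-3.66 ± 0.54, limma adjusted p = 0.0062). Mup-ps11 was at 0.35, 2.46 and 0.45 TPM after DEN and at 7.42, 24.01 and 31.26 TPM untreated (-3.32 ± 0.48, adjusted p = 0.0062). Reads from the many near-identical Mup genes can be assigned to such pseudogenes, so these values are uncertain as levels of their own. Capn8, a calpain protease on chromosome 1 (182565007 to 182632352), was at 0.10, 0.62 and 0.11 TPM after DEN and at 3.43, 7.24 and 2.88 TPM untreated (-2.05 ± 0.30, adjusted p = 0.0062). It was at 0.12 TPM or below in all 9 WT libraries. Gm31121, a predicted gene on chromosome 3, was at 0.11, 3.58 and 1.78 TPM after DEN and at 11.58, 12.35 and 5.93 TPM untreated (-2.12 ± 0.38, adjusted p = 0.0352), and at 0.01 TPM or below in every WT library. All 4 lost their call with a pseudocount of 0.1 (adjusted p = 0.126, 0.211, 0.274 and 0.335 for Mup-ps5, Mup-ps11, Capn8 and Gm31121) and with the 6 LKO libraries fitted alone (0.0689, 0.0689, 0.0698 and 0.149). Without the XX library Mup-ps5, Mup-ps11 and Capn8 passed, and Gm31121 did not (-1.56, adjusted p = 0.066).

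**Figure D2:**
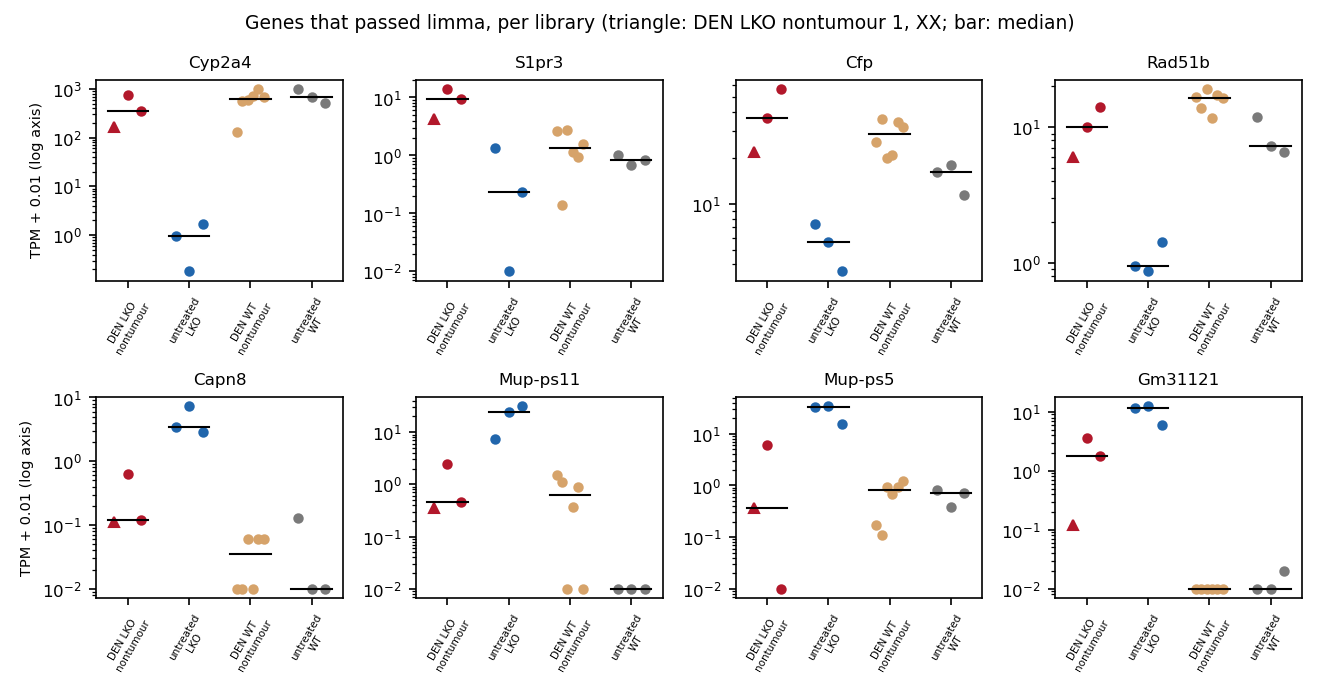
TPM of 8 of the 10 genes that passed, per library on a log axis (0.01 added), in DEN LKO nontumour (3), untreated LKO (3), DEN WT nontumour (6) and untreated WT (3) liver. The triangle is the XX library of DEN LKO nontumour and bars are medians, and the DEN LKO points lie wholly above the untreated LKO points in the upper row and wholly below them in the lower row.

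The Mup genes took a far smaller share of the RNA after DEN. They encode small lipocalins that male liver secretes in bulk and that carry pheromones in urine. The 22 Mup genes of the table summed to 11000, 37900 and 1360 TPM in DEN LKO nontumour 1 to 3 and to 125000, 89100 and 132000 TPM in untreated LKO 1 to 3. They were thus 1.1%, 3.79% and 0.136% of TPM after DEN and 12.5%, 8.91% and 13.2% untreated. Every DEN library lay below every untreated one, and the lowest, DEN LKO nontumour 3, was XY. Of the 22 genes 17 lay wholly lower after DEN, and none wholly higher, where 1.71% of all genes above 0 in any of the 6 libraries lay wholly lower. All 19 tested members had negative fold changes (median -4.07), and none passed limma. Without DEN LKO nontumour 1 the median was -4.62, without DEN LKO nontumour 3 it was -2.57, and with median-ratio scaling or quantile normalization it was -4.30 or -3.75.

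Mup7 had the largest fold change of the named members. It was at 107.34, 1541.25 and 7.99 TPM after DEN and at 12726.97, 8963.35 and 14985.00 TPM untreated (-6.71 ± 1.46, limma adjusted p = 0.113). All 3 DEN libraries lay below the untreated ones, and they differed widely among themselves. Mup15 (-6.51), Mup17 (-6.35), Mup12 (-5.86), Mup1 (-5.68) and Mup9 (-4.64) showed the same order of libraries within the DEN group, highest in DEN LKO nontumour 2 and lowest in DEN LKO nontumour 3 (limma, none past adjustment). Mup20, or darcin, the male pheromone protein, did not follow them. It was at 72.84, 10382.37 and 420.47 TPM after DEN and at 1799.11, 3299.39 and 4548.28 TPM untreated, so that DEN LKO nontumour 2 exceeded all untreated libraries (-2.13 ± 1.60, adjusted p = 0.999, and -0.52 without the XX library). In XX WT liver the Mup sum was 2290 to 64600 TPM after DEN and 61000, 33900 and 6070 TPM untreated. Since TPM values of a library share 1 total, a difference of this size also shifts the TPM of every other gene.

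Other genes of male liver lay lower as well. The list of male-biased genes, 27 in the table, held 5 Mup genes. Of its other 22 genes 8 lay wholly lower after DEN and none wholly higher (1.71% of all genes lay wholly lower, and 2.4% in the XY libraries alone), and all 21 tested had negative fold changes (median -1.55, and -1.27 without the XX library). Cyp4a12a, the male fatty acid omega-hydroxylase, was at 2.00, 69.17 and 2.21 TPM after DEN and at 148.04, 105.98 and 161.31 TPM untreated (-3.97 ± 0.81, limma adjusted p = 0.0854). Hsd3b5, a male 3-ketosteroid reductase, was at 0.71, 29.37 and 0.11 TPM against 51.53, 30.75 and 47.48 TPM (-3.48 ± 0.78, adjusted p = 0.13). In both, the XX library and the XY library 3 were low and the XY library 2 was nearest to the untreated range. Elovl3, a fatty acid elongase, Susd4, a complement regulator, and Alas2, the erythroid enzyme that starts haem production, were likewise highest in DEN LKO nontumour 2 among the DEN libraries and below every untreated library (-3.27, -1.55 and -2.48, adjusted p = 0.113, 0.0641 and 0.173). Gstp1, among the list's most abundant genes, had a fold change of -0.52 (limma unadjusted p = 0.464). In XX WT liver after DEN Hsd3b5 was at 0.11 to 1.42 TPM.

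Single libraries decided which of these genes were called. Without DEN LKO nontumour 2, 20 of all 10865 tested genes passed, 18 of them lower. Among the 20 were 5 Mup genes or pseudogenes and 7 other genes of the male-biased list. Hsd3b5 then reached -4.97 (limma adjusted p = 5.39e-06), Cyp4a12a -5.47 (5.39e-06), Mup7 -8.58 (0.00602) and Mup12 -7.71 (0.0159). Among the DEN libraries these genes were highest in the one left out, so its removal had to widen their difference. The DEN libraries left were DEN LKO nontumour 1, which was XX, and 3, which was XY, against XY untreated libraries. Sex and DEN are thus partly confounded in that fit. With all libraries, none of the list's 26 tested genes passed. In the fit with a term for XX or XY, 4 passed as lower (0.175% of all tested genes did), and the list's median was -1.34 against -1.91. The term rests on DEN LKO nontumour 1 and DEN LKO tumour 1, the XX libraries of the groups that also held XY ones. The labels do not state whether these libraries came from the same mouse, so they may not be independent. They also had the highest mitochondrial share of their groups, 36.16% and 30.79%. Sex and other traits of these libraries cannot be told apart in that fit. The fit favours genes that separate DEN LKO nontumour 2 and 3 from untreated LKO. A pass in it, here or in later paragraphs, therefore adds no evidence.

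Genes of female liver lay higher. Of 30 female-biased genes measured, 20 lay wholly above untreated LKO and none wholly below, where 8.75% of all genes above 0 in any of the 6 libraries lay wholly above. The filter left 17 of the 30, 5 of them only through the DEN libraries, with a median log2 fold change of 1.88, and Cyp2a4 alone passed. Without the XX library the count of wholly higher members was again 20, beside a background of 22%, and the median was 1.65. Cyp4a10, among the list's most abundant genes, overlapped between the groups (0.04 ± 1.20, limma adjusted p = 0.999). The XX library set the level of part of the list. Cyp3a41a, a female P450, was at 819.68 TPM in the XX library and at 1.58 and 2.93 TPM in the XY libraries after DEN, with at most 0.17 TPM untreated (4.27 ± 1.84, limma adjusted p = 0.751, and 1.60 without the XX library).

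In another part of the list at least 1 XY library after DEN came close to the XX one. Cyp17a1, a steroid 17-alpha-hydroxylase, was at 26.17, 27.78 and 18.18 TPM after DEN and at 1.31, 1.34 and 7.63 TPM untreated (2.78 ± 0.63, limma adjusted p = 0.13, and 2.71 without the XX library). Nipal1, a magnesium transporter, was at 5.26, 3.42 and 9.96 TPM against 0.03, 0.11 and 1.25 TPM (2.29 ± 0.47, adjusted p = 0.0854). Cyp39a1, an oxysterol 7-alpha-hydroxylase, was at 5.39, 3.96 and 4.32 TPM against 0.56, 0.41 and 0.54 TPM (1.88 ± 0.50, adjusted p = 0.271). Cyp2c69, a female P450, was at 50.12, 2.81 and 14.58 TPM against at most 0.95 TPM (3.37 ± 1.14, adjusted p = 0.466, and 2.46 without the XX library). Cyp2c69 was an exception, since its XY libraries lay well below the XX one and above all untreated ones. With the term for XX or XY, Cyp2a4, Cyp17a1 and Nipal1 passed (8.60, 3.06 and 2.51, limma adjusted p = 0.000161, 0.0259 and 0.0137). That fit favours genes that separate the XY libraries of the groups.

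Regulators and targets of growth hormone signalling are given next, and the 4 named here were chosen after their values were seen. Cux2, a repressor of male genes found in female liver, was at 1.75, 0.24 and 3.31 TPM after DEN and at 0.02, 0.07 and 0.01 TPM untreated, and was too low for the filter. Socs2, a STAT5 target that damps growth hormone signalling, was at 10.10, 46.31 and 19.04 TPM against 0.85, 3.26 and 2.53 TPM (2.85 ± 0.67, limma adjusted p = 0.162). Igf1, another STAT5 target, was at 959.05, 1171.19 and 953.23 TPM against 599.78, 537.45 and 696.66 TPM (0.75 ± 0.44, adjusted p = 0.999). Bcl6, the repressor of female genes in male liver, was at 0.62, 1.06 and 0.98 TPM against 1.13, 3.13 and 2.67 TPM (-0.76 ± 0.67, adjusted p = 0.999). The groups did not overlap in these 4, which describes genes picked with those values known. Promoters were searched on both strands for the STAT5 palindrome TTCNNNGAA in the 250 bases before the start. It was in 3 of 21 female-biased genes with a promoter (14.3%), in 2 of 19 male-biased genes (10.5%) and in 0 of 14 Mup genes, against 8.13% of 27025 genes.

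**Figure D3:**
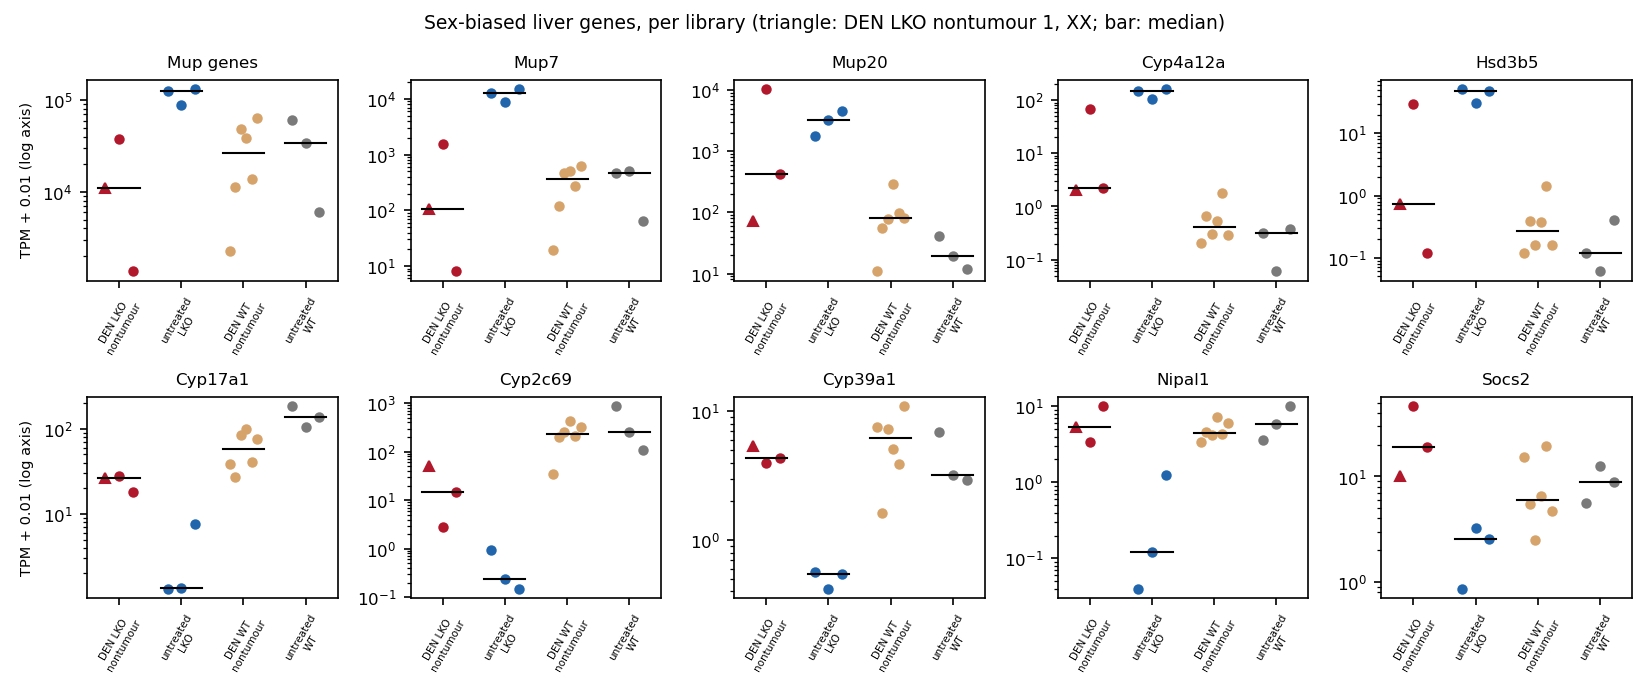
TPM per library on a log axis (0.01 added) for the sum of the 22 Mup genes and for 9 genes of male or female liver, in the 2 LKO and 2 WT groups. The triangle is the XX library of DEN LKO nontumour and bars are medians. In the male genes of the upper row DEN LKO nontumour 3, an XY library, falls to the level of the XX library or below, except in Mup20, and in the lower row all DEN LKO libraries exceed the untreated LKO ones.

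The 9 WT libraries were XX, and Cyp2a4 was high and Hsd3b5 low in them with and without DEN. The WT fold changes, DEN WT nontumour over untreated WT, had a median of -0.28 over the tested female-biased genes and of 0.29 over the male-biased ones. No gene passed between the WT groups in limma (47 at an unadjusted p under 0.05, 0.433% of 10865, with 0.23% higher and 0.202% lower). The difference of the DEN effect between LKO and WT was tested as an interaction, and no gene passed (267 at an unadjusted p under 0.05, 2.46%, with 1.94% higher and 0.515% lower). The lowest adjusted p was 0.0735, shared by Cyp2a4 (8.01 ± 1.35 more in LKO) and Mup-ps11 (-3.95 ± 0.63). In that fit an effect that passed in LKO alone is not shown to differ between the genotypes. With the term for XX or XY Cyp2a4 alone passed the interaction (9.02, adjusted p = 0.00294), and without DEN LKO nontumour 2, 11 genes passed it. Sex chromosomes and genotype label are the same division in untreated liver and cannot be told apart there.

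Macrophage genes also lay higher after DEN. Of 27 genes of macrophages and Kupffer cells 20 lay wholly above untreated LKO and none wholly below, against 8.75% of all genes above 0. In the XY libraries alone 25 of 27 did, against 22%. The 20 tested members all had positive fold changes (median 1.68, and 1.50 with median-ratio scaling), 15 of them at an unadjusted p under 0.05 (4.8% of tested genes were higher at that p), and none passed limma after adjustment. Of these 20, 3 were under 1 TPM in every untreated library and entered through the DEN libraries. The list summed to 285 to 914 TPM after DEN and to 114 to 171 TPM untreated. Without DEN LKO nontumour 3 the median was 1.34 and with the term for XX or XY 1.99. In bulk tissue, more cells of a type and more RNA per cell cannot be told apart.

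Among general macrophage and myeloid members, Aif1, an actin-bundling protein of macrophages, was at 15.33, 41.83 and 35.11 TPM after DEN and at 9.56, 4.69 and 2.69 TPM untreated (2.28 ± 0.51, limma adjusted p = 0.13, and 2.70 without the XX library, adjusted p = 0.066). Lyz2, the lysozyme of myeloid cells, was at 21.95, 55.34 and 43.47 TPM against 9.33, 7.35 and 5.96 TPM (2.19 ± 0.86, adjusted p = 0.649). C1qb, a chain of complement C1q, was at 23.45, 58.45 and 96.99 TPM against 14.10, 8.30 and 11.43 TPM (2.12 ± 0.69, adjusted p = 0.421). In these the XX library was the lowest of the DEN group. Markers of resident Kupffer cells lay higher too. Cd5l, an apoptosis inhibitor secreted by them, was at 14.49, 22.94 and 44.85 TPM against 10.12, 5.43 and 2.17 TPM (2.08 ± 0.69, adjusted p = 0.453). Clec4f, their galactose-binding lectin, was at 54.87, 42.07 and 153.17 TPM against 36.83, 17.20 and 20.45 TPM (1.55 ± 0.60, adjusted p = 0.647), and Vsig4, their complement receptor, at 15.95, 12.64 and 22.63 TPM against 4.55, 2.46 and 4.59 TPM (1.89 ± 0.54, adjusted p = 0.294).

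Other members were at low levels or overlapped between the groups. Trem2, a receptor of lipid-laden macrophages, was at 0.86, 0.72 and 4.87 TPM after DEN and at 0.20 to 0.47 TPM untreated. It lay wholly higher but was too low for the filter. Marco, a scavenger receptor, was at 1.16, 12.23 and 18.10 TPM after DEN and at 2.37, 0.98 and 0.06 TPM untreated, so only the XX library overlapped (2.09 ± 0.72, limma adjusted p = 0.497). With the term for XX or XY, Marco (2.73), C1qb (2.72), Aif1 (2.72) and Tyrobp (2.51), the adaptor of myeloid receptors, passed (adjusted p = 0.0424, 0.0342, 0.00623 and 0.0123). That fit favours genes that separate the XY libraries, so these passes add no evidence. The median WT fold change of the tested members was 0.69, and none passed.

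The promoters of macrophage genes were searched on both strands for GAGGAAG, the core of the site of PU.1, the transcription factor of myeloid cells. It was in the 250 bases before the start of 7 of 22 list genes with a promoter (31.8%), against 12% of 27025 genes. Of MHC class II genes 0 of 7 held it, of female-biased genes 4 of 21 (19%) and of male-biased genes 3 of 19 (15.8%). Cd5l and Marco are shown as list members that hold it, with the match, on either strand, in capitals (RefSeq, GRCm38.p6, 210 bases from 250 before the start).
Cd5l (chr3:87357631-87357840, plus strand): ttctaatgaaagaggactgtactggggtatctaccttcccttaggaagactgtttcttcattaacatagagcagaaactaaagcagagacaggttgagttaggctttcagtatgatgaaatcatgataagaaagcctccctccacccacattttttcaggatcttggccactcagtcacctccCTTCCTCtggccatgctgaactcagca
Marco (chr1:120505065-120505274, minus strand): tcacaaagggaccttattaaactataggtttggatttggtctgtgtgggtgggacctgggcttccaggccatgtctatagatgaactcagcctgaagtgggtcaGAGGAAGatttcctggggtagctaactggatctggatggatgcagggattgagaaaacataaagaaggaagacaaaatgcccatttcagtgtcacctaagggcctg
A match describes letters only, and binding was not measured.

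Genes of MHC class II, which present antigen on macrophages, dendritic cells and B cells, lay higher too. Of 10 genes 8 lay wholly above untreated LKO (8.75% of all genes did), and all 10 did in the XY libraries (22%). The list summed to 133 to 783 TPM after DEN and to 43.3 to 85 TPM untreated. Cd74, the invariant chain, was at 52.67, 133.99 and 396.72 TPM after DEN and at 32.21, 15.14 and 17.50 TPM untreated (2.73 ± 1.14, limma adjusted p = 0.721). H2-Aa was at 27.34, 59.72 and 128.47 TPM against 16.40, 7.34 and 10.60 TPM (2.35 ± 0.94, adjusted p = 0.665). None of the 7 tested passed (median 1.93, WT median 0.75). All 16 MHC class I genes also had positive fold changes (median 0.47), and 4 lay wholly higher. Of 22 tested interferon response genes 21 were positive (median 0.55), and 8 of the 30 listed lay wholly higher. The share over all genes was 8.75%, and no gene of either list passed. Of 22 T and NK cell genes 8 lay wholly higher, against 8.75% of all genes. Ccl5, a chemokine of the list, was at 11.01, 33.33 and 46.21 TPM against 3.55, 3.05 and 5.56 TPM (2.44 ± 0.84, adjusted p = 0.492). Cd4, the coreceptor of helper T cells, had the opposite sign, at 0.09, 0.74 and 1.68 TPM against 3.42, 4.77 and 0.73 TPM (-1.04 ± 0.63, adjusted p = 0.999). Of 19 B and plasma cell genes 9 lay wholly higher (8.75% of all genes), with the light chain constant gene Igkc at 93.16, 581.68 and 198.62 TPM against 62.02, 25.74 and 58.83 TPM (2.25 ± 0.98, adjusted p = 0.751).

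**Figure D4:**
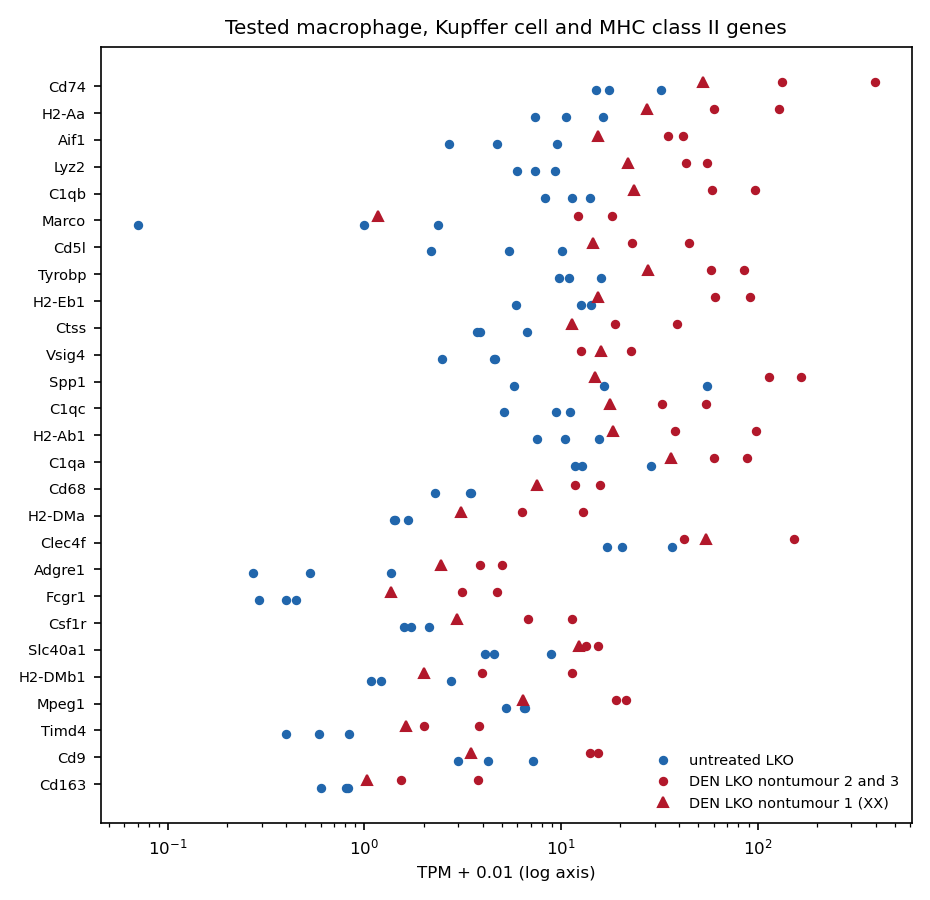
TPM of each tested gene of the macrophage, Kupffer cell and MHC class II lists, per library on a log axis (0.01 added), ordered by log2 fold change. Untreated LKO points lie to the left of the DEN LKO nontumour points in most rows, and the triangle, the XX library of DEN LKO nontumour, is usually the leftmost of its group.

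Markers of liver tumours lay higher in nontumour tissue. Of 25 genes 13 lay wholly above untreated LKO and none below, where 8.75% of all genes lay wholly above and 1.71% below. None of the 13 tested passed. Their median log2 fold change was 2.20, but 6 of the 13 were under 1 TPM in every untreated library and entered through the DEN libraries, which raises that median. Tff3, a secreted trefoil peptide, was at 9.06, 371.32 and 118.95 TPM after DEN and at 1.44, 0.94 and 0.80 TPM untreated (5.23 ± 1.45, limma adjusted p = 0.293, and 6.69 without the XX library, adjusted p = 0.0975). It passed with the term for XX or XY (6.85, adjusted p = 0.00623), a fit that favours genes that separate the XY libraries. In DEN WT nontumour Tff3 was at 0.79 to 55.09 TPM (median 14.9) and in untreated WT at 0.25 TPM or below. Akr1c18, a 20-alpha-hydroxysteroid dehydrogenase, was at 3.68, 108.94 and 11.18 TPM against 0.32, 0.33 and 0.29 TPM (3.81 ± 1.25, adjusted p = 0.43). Both were highest in DEN LKO nontumour 2.

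The imprinted genes H19 and Igf2, active in fetal liver, were highest in the XX library instead. H19 was at 38.73, 1.69 and 14.03 TPM after DEN and at 0.50 TPM or below untreated (3.24 ± 1.35, limma adjusted p = 0.721), and Igf2 at 76.36, 4.22 and 3.82 TPM against 0.91 TPM or below (3.21 ± 1.26, adjusted p = 0.655). Without the XX library they were 2.36 and 1.89 (adjusted p = 0.878 and 0.916). Afp, alpha-fetoprotein, was at 1.19, 12.61 and 5.65 TPM against 0.11, 0.04 and 0.78 TPM (2.20 ± 1.03, adjusted p = 0.853). Gpc3, glypican 3, was at 0.27, 2.65 and 0.69 TPM against 0.04 TPM or below, too low for the filter. Cd44, a hyaluronan receptor, was at 2.47, 5.43 and 8.63 TPM against 0.88, 0.64 and 0.24 TPM (1.94 ± 0.40, adjusted p = 0.0924, and 2.33 without the XX library, adjusted p = 0.0363). Of 34 cell division genes 10 lay wholly higher (8.75% of all genes), all but 1 of them too low for the filter, and Top2a, topoisomerase II alpha, was at 0.32, 2.88 and 2.05 TPM against 0.19 TPM or below.

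Among stress and detoxification genes, targets of NRF2 were uneven. Of 28 genes 4 lay wholly higher, beside 8.75% of all genes, and 13 did in the XY libraries alone, beside 22%. Of the 25 tested, 19 had positive and 6 negative fold changes (median 0.42), and none passed. At an unadjusted limma p under 0.05, 6 were higher (4.8% of tested genes). Gsta1, a glutathione transferase, was at 11.37, 73.48 and 147.27 TPM after DEN and at 3.55, 3.65 and 10.64 TPM untreated (3.04 ± 1.29, limma adjusted p = 0.741). Gstm3 was at 62.24, 75.75 and 325.09 TPM against 30.32, 9.40 and 46.66 TPM (2.22 ± 0.73, adjusted p = 0.428), and Nqo1, a quinone reductase, at 3.91, 8.77 and 24.03 TPM against 2.38, 0.97 and 3.59 TPM (1.77 ± 0.67, adjusted p = 0.621). All 3 were highest in DEN LKO nontumour 3. Gsta1 and Nqo1 passed with the term for XX or XY (4.50 and 2.41, adjusted p = 0.0238 and 0.0399), with the limit of that fit given above. Targets of p53, the pathway of DNA damage, had 1 of 30 genes wholly higher and 1 wholly lower (8.75% and 1.71% of all genes), and none of the 19 tested was at an unadjusted p under 0.05 (5.78% of tested genes). Cdkn1a, its cell cycle inhibitor, was at 0.61, 3.68 and 4.30 TPM after DEN and at 1.10, 0.13 and 8.15 TPM untreated (0.29 ± 1.06, adjusted p = 0.999). Mdm2 (0.47 ± 0.48), Ccng1 (-0.10 ± 0.53) and Gdf15 (-0.61 ± 0.88) overlapped between the groups as well (adjusted p = 0.999 for each).

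Iron genes included Hamp, the iron hormone hepcidin, at 8365.71, 3220.81 and 37024.67 TPM after DEN and at 8731.13, 1769.36 and 1860.60 TPM untreated (1.71 ± 0.78, limma adjusted p = 0.811). It was highest in DEN LKO nontumour 3, and the other DEN libraries lay within the untreated range. Id1, a target of the BMP signal that also drives Hamp, was at 7.37, 17.52 and 35.19 TPM against 2.42, 2.48 and 4.30 TPM (2.16 ± 0.64, adjusted p = 0.336, and past adjustment with the term for XX or XY, 2.78, adjusted p = 0.0131). The limit of that fit given above holds here too. Slc40a1, the iron exporter ferroportin, was at 12.27, 15.43 and 13.41 TPM against 4.11, 4.57 and 8.86 TPM (1.16 ± 0.57, adjusted p = 0.885). Of the 20 iron and metallothionein genes 4 lay wholly higher, against 8.75% of all genes. Acute phase genes had no common direction. Lcn2 was at 22.01, 116.96 and 135.35 TPM against 30.58, 139.71 and 12.20 TPM, and Saa1 at 12.83, 43.69 and 53.40 TPM against 183.24, 486.72 and 28.55 TPM, with overlap in both.

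Lipid genes were mixed. Lpl, lipoprotein lipase, which adult hepatocytes hardly express and macrophages do, was at 4.90, 23.22 and 20.58 TPM after DEN and at 1.68, 2.07 and 0.65 TPM untreated (2.61 ± 0.60, limma adjusted p = 0.148, and 3.26 without the XX library, adjusted p = 0.0418). Fitm1, a lipid droplet protein, was at 29.21, 66.25 and 27.09 TPM against 163.26, 72.91 and 214.49 TPM (-1.84 ± 0.61, adjusted p = 0.453). G0s2, an inhibitor of fat breakdown, was at 26.78, 25.90 and 26.48 TPM against 61.59, 27.96 and 127.54 TPM (-1.17 ± 0.82, adjusted p = 0.999). Untreated LKO 3 was the high library in several of these genes. Cidec, a droplet fusion protein, was at 2.13, 16.90 and 1.84 TPM against 7.15, 5.07 and 67.29 TPM. Fasn, fatty acid synthase, was at 38.48, 79.48 and 141.72 TPM against 28.34, 8.28 and 373.27 TPM, and Scd1, the delta-9 desaturase, at 637.21, 665.14 and 1091.41 TPM against 131.23, 319.76 and 2792.11 TPM. Cidec, Fasn and Scd1 overlapped (-1.47, 0.72 and 0.66, adjusted p = 0.999 each), as did the fatty acid carrier Cd36 (0.10 ± 0.83). Scd2, the desaturase of nonhepatic tissue, was at 2.27, 11 and 5.53 TPM against 0.31 TPM or below (2.35 ± 0.88, adjusted p = 0.612). It passed with the term for XX or XY (3.39, adjusted p = 0.0101), with the limit of that fit given above.

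Genes of hepatocytes near the central vein lay lower in part and higher in part. Of 26 pericentral genes 7 lay wholly lower (1.71% of all genes) and 1, Gstm3, wholly higher (8.75%), and none of the 22 tested passed (median -0.47). At an unadjusted limma p under 0.05, 2 were higher and 1 lower (4.8% and 0.976% of tested genes). Cyp2a5, also of this list, was higher with overlap (1.47 ± 0.63, limma adjusted p = 0.75). Cyp8b1, the sterol 12-alpha-hydroxylase of bile acid synthesis, was at 14.86, 8.93 and 31.80 TPM after DEN and at 45.67, 33.67 and 228.67 TPM untreated (-2.06 ± 0.96, limma adjusted p = 0.853). Oat, ornithine aminotransferase, was at 120.30, 49.36 and 69.46 TPM against 282.24, 129.65 and 175.35 TPM (-1.31 ± 1.19, adjusted p = 0.999). Aldh1a1, a retinaldehyde dehydrogenase, was at 56.81, 63.46 and 42.60 TPM against 134.17, 63.57 and 284.75 TPM (-1.31 ± 1.06, adjusted p = 0.999). Glul, glutamine synthetase, and Cyp2e1, which activates DEN, overlapped (-0.69 ± 0.97 and -1.13 ± 1.24, adjusted p = 0.999 for both). Cyp2e1 was at 488.97, 382.08 and 582.65 TPM against 2330.41, 353.75 and 1379.26 TPM.

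The medians of 5 other hepatocyte lists ran from -0.50 to 0.05. The median over 33 tested hepatocyte identity genes was -0.03, over 25 periportal genes 0.05, over 25 cholesterol synthesis genes 0.01, over 33 PPARa targets of fatty acid oxidation -0.50, and over 36 folate and one-carbon genes -0.22, beside 0.10 for all genes. Cyp7a1, the rate-limiting enzyme of bile acid synthesis, overlapped (0.45 ± 0.92, limma adjusted p = 0.999), as did Sqle and Hmgcs1 of cholesterol synthesis (0.72 ± 0.86 and 0.89 ± 0.53, adjusted p = 0.999 for both). Krt19, a bile duct keratin, was at 0.22, 3.22 and 6.24 TPM after DEN and at 0.39, 1.66 and 0.54 TPM untreated (0.90 ± 0.57, adjusted p = 0.999). Col1a1, the fibrillar collagen of stellate cells, was at 0.13, 1.34 and 1.10 TPM against 0.18, 0.46 and 0.53 TPM, too low for the filter. All 13 tested stellate cell and matrix genes had positive fold changes (median 0.56), as did 5 of 6 tested bile duct cell genes (median 1.10), and none passed. Of these lists 5 of 30 and 1 of 21 genes lay wholly higher, against 8.75% of all genes. In the XY libraries alone 17 and 12 did, against 22%. Grm8, a glutamate receptor that WT liver had at 0.11 TPM or below, was at 1.67, 3.32 and 3.31 TPM after DEN and at 4.43, 3.31 and 0.68 TPM untreated, with overlap (0.11 ± 0.34, adjusted p = 0.999). The 5S ribosomal RNA genes n-R5s129 and n-R5s136 were at 94.73 to 155.38 and at 38.29 to 146.28 TPM after DEN and were listed at 0 in untreated LKO (adjusted p = 0.293 and 0.214). Both passed with the 6 LKO libraries fitted alone (6.74e-06 and 0.000147).

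**Figure D5:**
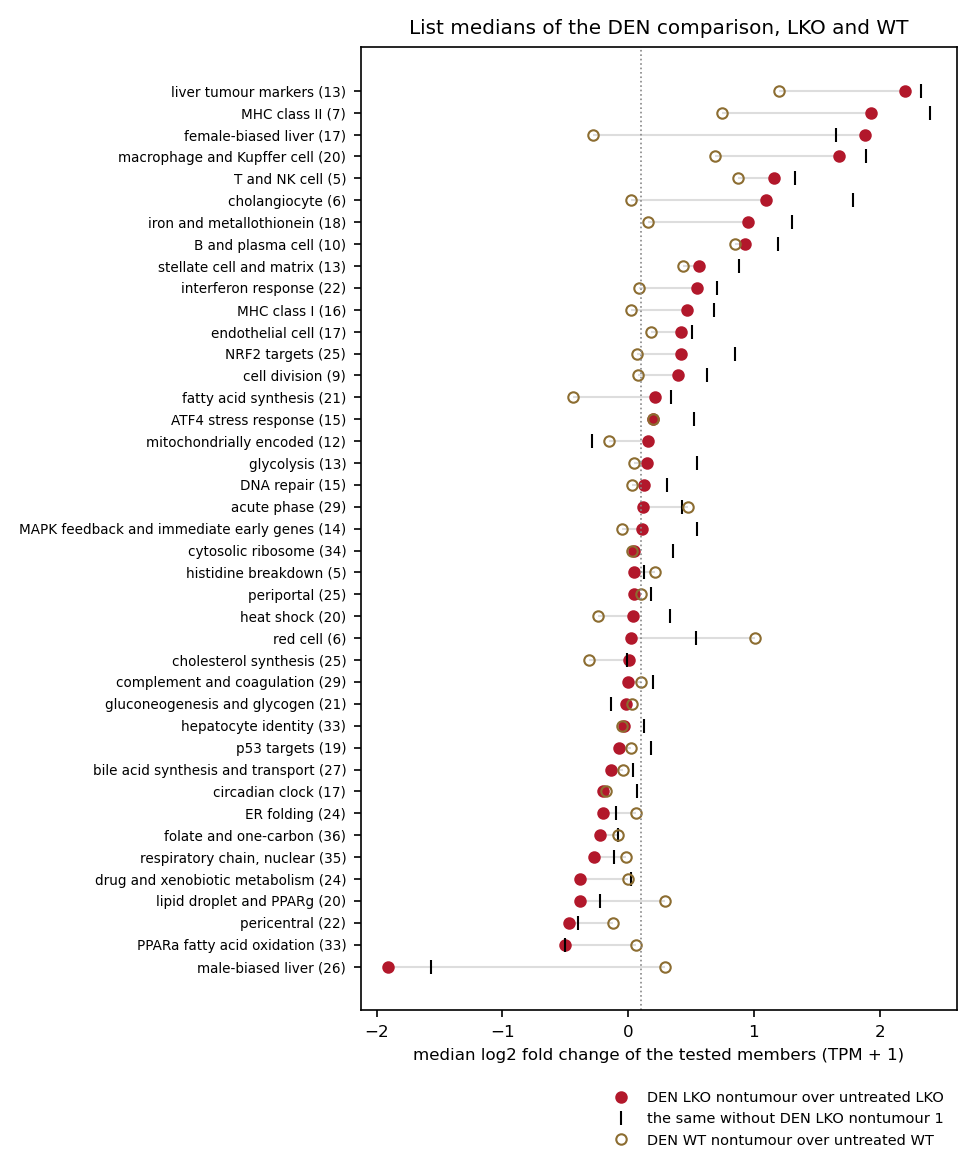
Median log2 fold change of the tested members (number in brackets) of each list with 5 or more tested genes, for DEN LKO nontumour over untreated LKO (filled), the same without the XX library (bar), and DEN WT nontumour over untreated WT (open). The dotted line is the median of all genes tested, 0.10. Male-biased genes lie lowest at -1.91 and liver tumour markers, MHC class II, female-biased and macrophage genes highest at 1.68 to 2.20. Of the tested members, 6 of 13 liver tumour markers, 5 of 17 female-biased and 3 of 20 macrophage genes entered only through the DEN libraries, which raises these medians.

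More genes were called when the sex chromosomes entered the model. The term takes up whatever set DEN LKO nontumour 1 and DEN LKO tumour 1 apart from their groups, sex included. With the term for XX or XY 135 genes passed (1.24% of 10865), 116 higher (1.07%) and 19 lower (0.175%), and all 10 genes above were among them. The median of all genes was then 0.31. Of the 135, 4 were macrophage list genes and 7 were female-biased or male-biased list genes. In all 135 the XY libraries of DEN LKO nontumour lay wholly on one side of untreated LKO. Of all genes above 0 in any of the 6 libraries, 22% lay wholly higher in this way and 2.4% wholly lower. Since the term takes up the XX library, the fit favours genes that separate these XY libraries, so the count adds no evidence. The genes called lower included 4 Mup genes and 7 Mup pseudogenes, led by Mup17 (-8.11, limma adjusted p = 0.0286) and Mup7 (-6.93, adjusted p = 0.0438). Dropping DEN LKO nontumour 1 alone gave 11 genes (0.101%), 7 higher (0.0644%) and 4 lower (0.0368%), with 7 of the 11 among the 10, and dropping it together with DEN LKO tumour 1, an XX library too, gave 74.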

How the data were processed

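The authors deposited TPM values per gene for 18 libraries. The submitters' processing notes name fastp, HISAT, RSEM and mm10; their versions and roles are not given. Genes had to reach 1 TPM in 3 or more of the 6 LKO libraries, values were taken as log2(TPM + 1), and limma 3.58.1 (R 4.3.3) fitted 5 group means to all 18 libraries (13 residual degrees of freedom), with Benjamini-Hochberg adjustment over all tested genes. TPM keeps no depth, so no count model or counting interval was used. Figures and summaries used Python 3.11.15, pandas 2.3.3 and matplotlib 3.10.9.

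Genes named were those past an adjusted p of 0.05 whose higher group averaged at least 5 TPM (up to 12 per direction). Each direction was filled to 8 with nonoverlapping genes at p under 0.01, and a fixed set and up to 4 members of each list were added. Capn8, Gm3788, Gm31121, MSTRG.18284, Cux2, Socs2, Igf1, Bcl6, Mup20, Hsd3b5, Tyrobp and Cd44 were chosen after their values were seen. Nipal1, Cyp39a1, Susd4, Vsig4, Marco and Top2a were likewise not picked by the rule, and not every member that it picked is described. The comparison and the gene lists were chosen with earlier results of these data known. The values of 1 gene of the female-biased list are not reported here. Coordinates are from GENCODE on mm10. The fit was tested on simulated data, in 5 draws of 10865 genes with 50 genes changed per draw. Of the changed genes 2% were recovered at a log2 change of 1, 30.8% at 2, 72% at 3 and 90.4% at 4. False calls averaged 5 per draw at each of these sizes, beside 10 genes called in the real comparison. In the simulation, changes of 1 or 2 were thus mostly missed, and some calls were false. The 10 genes may therefore include false calls in spite of the adjustment. Alternatives covered the pseudocount, filter, scaling, libraries fitted, covariates, replicate block and leaving out each library. No other per-sample columns were present (0).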

Additional observations from a re-analysis of the deposited data

Results flagged for a closer look

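Among the 6 DEN WT nontumour libraries, 11 genes and shares were examined for a library far from the others, and 3 had one. Chance flags about 1 in 20 such groups. Cyp2a4 was at 128.48 TPM in DEN WT nontumour 1, below the other 5. In the same library mitochondrially encoded genes took 38.31% of TPM, above the other 5. Hsd3b5 was at 1.42 TPM in DEN WT nontumour 5, above the other 5.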

How the results depend on the processing

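With 10 genes past adjustment in LKO, a pseudocount of 0.1 gave 2, median-ratio scaling 20, quantile normalization 18, the 6 LKO libraries alone 9 (all higher, 2 shared), the term for XX or XY 135, and leaving out DEN LKO nontumour 1 with tumour 1 (chosen after seeing the data) 74. Leaving out 1 library gave 0 to 20. The replicate block on the 6 LKO libraries alone gave 350, but the numbers did not pair the samples (correlations of deviations 0.02, -0.24 and -0.26), and only number 1 correlated best with its own number. The interaction, with 0 genes, gave 2 with no filter, 4 with median-ratio scaling, 4 with quantile normalization, 1 without mitochondrially encoded genes, 1 with the contrast's libraries alone, 1 with the XX or XY term, 2 with the mitochondrial share as a term, 1 without DEN LKO nontumour 1 and tumour 1, 2 without the low-Ftcd libraries labelled WT (chosen after seeing the data), and 0 to 11 leaving out 1 library. The difference in mitochondrial share ran from -4.61 to 5.14 percentage points leaving out 1 library. Genes whose sign turned were far from the threshold. Leaving out 1 library gave -0.24 to 0.78 for Cd36, -0.36 to 1.15 for Cdkn1a, -0.32 to 0.29 for Ccng1, -1.52 to 0.12 for Gdf15, -0.45 to 2.22 for Fasn, -0.29 to 1.91 for Scd1 and -0.40 to 0.45 for Grm8. Cd36 was -0.08 with median-ratio scaling and -0.09 without DEN LKO nontumour 1 and tumour 1. Ccng1 was 0.20 with the XX or XY term and 0.02 without DEN LKO nontumour 1 and tumour 1. Grm8 was -0.12 with median-ratio scaling and -0.21 with quantile normalization. The causes were not tested. Of 827 recomputed list medians, 20 moved by more than the spread. The depth of each library is unknown.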
